A study of Homo sapiens with 9 samples.

Results

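The 43 genes described here encode secreted factors that senescent cells are known to release, together with the proteases, inhibitors and binding proteins that travel with them. They were taken by symbol from the 60683 genes counted in each library, and all 43 were found. They fall into 8 interleukins and related cytokines, 10 chemokines, 6 growth factors and related proteins, 5 members of the plasminogen activator system, 5 matrix metalloproteinases, 3 of their tissue inhibitors and 6 insulin-like growth factor (IGF) binding proteins. The messenger RNA came from cells labelled HCT-15, a human colorectal adenocarcinoma line. It was read in 3 oxaliplatin libraries, 3 sorafenib libraries and 3 untreated libraries. Oxaliplatin, a platinum drug that binds DNA, was given at 0.5 µM for 7 days, then at 1, 2 and 4 µM in steps from day 10 until day 30, after which cells stayed in 4 µM. Sorafenib, an inhibitor of RAF and of several receptor tyrosine kinases, was used to derive a resistant line in a similar way, at doses that the labels do not state. All 9 libraries are labelled wild type and were grown in the same medium with serum, and untreated cells received no drug.

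A cell that has left the cell cycle for good often keeps secreting, and the mixture it releases is called the senescence-associated secretory phenotype. Its cytokines and chemokines are driven largely by NF-kB and C/EBP factors and act on neighbouring cells and immune cells, while its proteases and their inhibitors remodel the matrix and set growth factors free. IGF binding proteins hold IGFs away from their receptor, and some act on cells directly. Plasminogen activators turn plasminogen into plasmin on the cell surface.

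Total counts ran from 15797076 to 20936536 per library. The 3 libraries of a group differed by more than sampling noise (chi-square per degree of freedom 18.7 to 40.4), but no label says that they were grown as separate cultures, so a p-value reflects only how these libraries vary, in part perhaps technically. Sorafenib 1 and untreated 1 were closer to each other (correlation across genes 0.975 on the log2 scale of counts-per-million values (CPM)) than untreated 1 was to untreated 2 and 3 (0.971 and 0.972). The markers went against the labelled cell type. Of 12 markers of colorectal epithelium, 8 had 0 counts in every library, CDX2, CDH1 and CEACAM5 among them, and all 12 had a median under 1 CPM, while 9 of 9 renal markers had a median of at least 2.05 CPM. The names of all 9 count columns carry the number 769, whereas the labels say HCT-15. Leukocyte genes PTPRC and CD3E had 0 counts in every library. For whether the cells were senescent there are only transcripts. CDKN1A, the gene of the cell cycle inhibitor p21, stood at 199 ± 75.0 CPM in oxaliplatin, 117 ± 10.4 CPM in sorafenib and 67.7 ± 9.40 CPM in untreated libraries (mean ± SD, n = 3 each), and the proliferation marker MKI67 at 181 ± 84.3, 123 ± 55.4 and 170 ± 59.0 CPM in the same order. CDKN1A rose in oxaliplatin (log2 fold change 1.56 ± 0.26, SE, adjusted p = 0.00405). LMNB1, whose lamin is lost in senescent cells, fell in oxaliplatin and in sorafenib, each by 0.74 ± 0.11 on the log2 scale (adjusted p = 0.00203 and 0.00748). MKI67 was called in neither (adjusted p = 0.907 and 0.565), nor were CDKN2A, the gene of p16 (0.141 and 0.102), and GLB1, the gene of the lysosomal beta-galactosidase (0.275 and 0.55). CDKN2B, the gene of the cell cycle inhibitor p15, was called lower in oxaliplatin (-0.43 ± 0.14, adjusted p = 0.0389), but 10 of 18 alternatives ended this call. Each adjusted p given here comes from the quasi-likelihood test of edgeR, adjusted by the Benjamini-Hochberg method over the 16159 genes that passed a filter on low counts. Genes with an adjusted p under 0.05 are referred to as called.

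Of the 43 members, 14 were silent or nearly so, among them 2 of the 8 interleukins and 4 of the 10 chemokines. CXCL1, CXCL5, CCL5, SERPINB2, MMP3 and IGFBP5 had 0 counts in all 9 libraries, which allows up to 0.138 to 0.182 CPM in a library (3 counts, covering counting error only). A further 8 members had a few counts and did not pass the filter, with at most 15 counts in any library. These were the interleukin-1 genes IL1A and IL1B, the interferon-induced chemokine CXCL10, the decoy receptor TNFRSF11B (osteoprotegerin), the collagenase MMP1, and IGFBP2, IGFBP4 and IGFBP7. IL1A had 1 count in each of sorafenib 1 and sorafenib 3, IL1B had 1 count in sorafenib 2, and neither had any in oxaliplatin or untreated libraries. MMP1 had 5, 6 and 3 counts in the oxaliplatin libraries, 4, 1 and 1 in the sorafenib libraries and 0, 0 and 1 in the untreated libraries. The reads of IGFBP7 cannot be told from those of POLR2B on the opposite strand where their exons overlap, since the strand setting of the counting is not given in the sources used here. The remaining 29 members passed the filter and were tested.

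CXCL1, CXCL2 and CXCL3 are neighbouring genes on chromosome 4 that encode closely related neutrophil attractants, and CXCL8, the gene of interleukin-8, lies in the same cluster. Their promoters are shown because CXCL1 was silent beside the 3 expressed genes although all 4 carry the same NF-kB match. The lines give the 250 bases before each start, 5′ to 3′, from RefSeq (GRCh38.p14), with the letters that match GGAATTNCC in capitals. They are chr4:73869143-73869392, plus strand, chr4:74099196-74099445, minus strand, chr4:74038690-74038939, minus strand, and chr4:73740319-73740568, plus strand.
CXCL1: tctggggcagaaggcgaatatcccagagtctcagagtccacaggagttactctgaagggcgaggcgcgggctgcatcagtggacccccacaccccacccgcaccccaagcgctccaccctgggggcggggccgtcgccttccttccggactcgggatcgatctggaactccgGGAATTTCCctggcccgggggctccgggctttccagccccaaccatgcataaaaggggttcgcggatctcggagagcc
CXCL2: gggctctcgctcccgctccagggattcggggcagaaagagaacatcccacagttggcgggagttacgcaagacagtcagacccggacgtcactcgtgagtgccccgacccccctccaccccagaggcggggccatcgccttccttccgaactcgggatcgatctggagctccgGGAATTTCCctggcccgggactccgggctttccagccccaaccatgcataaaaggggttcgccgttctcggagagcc
CXCL3: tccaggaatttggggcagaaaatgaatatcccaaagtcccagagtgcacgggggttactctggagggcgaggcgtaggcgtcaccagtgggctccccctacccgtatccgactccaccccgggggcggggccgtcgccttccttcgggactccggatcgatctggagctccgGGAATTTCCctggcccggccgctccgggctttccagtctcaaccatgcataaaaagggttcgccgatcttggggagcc
CXCL8: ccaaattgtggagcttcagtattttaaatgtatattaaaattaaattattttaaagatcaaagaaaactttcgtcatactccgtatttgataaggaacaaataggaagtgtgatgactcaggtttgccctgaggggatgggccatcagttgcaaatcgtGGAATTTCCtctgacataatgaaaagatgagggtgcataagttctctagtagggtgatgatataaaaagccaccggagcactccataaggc

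The match, GGAATTTCC in all 4, began 78, 77, 78 and 91 bases before the start of CXCL1, CXCL2, CXCL3 and CXCL8. On both strands, 0.814% of 35116 human promoter windows of this length hold GGAATTNCC. Of the 29 members with a window in the table, 6 held it, which were these 4, CXCL5 and CXCL10, so that 3 of the 6 were among the members that did not pass the filter. CXCL1 and CXCL2 shared a run of 42 identical bases just downstream of the match. A match describes letters in a window and does not show that a factor binds there.

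CXCL2 had 3.21, 3.69 and 2.98 CPM in oxaliplatin libraries 1 to 3, 4.94, 3.97 and 4.93 CPM in sorafenib libraries and 6.39, 4.26 and 4.30 CPM in untreated libraries. CXCL3 had 1.19, 1.41 and 1.03 CPM in oxaliplatin, 0.978, 1.53 and 0.643 CPM in sorafenib and 1.82, 1.55 and 0.955 CPM in untreated libraries. CXCL8 had 8.66, 8.68 and 5.84 CPM in oxaliplatin, 4.78, 4.31 and 4.77 CPM in sorafenib and 6.39, 4.87 and 7.59 CPM in untreated libraries. None of the 3 was called in any comparison. CXCL8 came nearest, between oxaliplatin and sorafenib (log2 fold change 0.74 ± 0.22, adjusted p = 0.061), where the groups did not overlap, and next CXCL2 between oxaliplatin and untreated (-0.59 ± 0.22, adjusted p = 0.0627). Related genes can take reads from each other, so the uniqueness of the transcripts was checked. Of 1197 stretches of 100 bases in the CXCL1 transcripts of GENCODE 29, 0 were shared with CXCL2 or CXCL3, and of 1581 in CXCL2, 79 were shared with CXCL3 (5.0%). How reads with several alignments were treated is not given in the sources used here, so the levels of CXCL2 and CXCL3 remain uncertain to that extent.

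The signal lay in proteases, their inhibitors and IGFBP6. For levels between genes, counts were divided by gene length and expressed as transcripts-per-million values (TPM). The 6 highest of the 43 members by mean TPM over the 9 libraries were PLAU (142 TPM), TIMP2 (138 TPM), TIMP1 (135 TPM), IGFBP6 (108 TPM), SERPINE2 (78.5 TPM) and MMP14 (71.7 TPM). Together these 6 held 71.9% of the members' summed TPM. The highest cytokines were IL32 (62.7 TPM) and LIF (44.2 TPM), and 19 of the 43 members had a mean under 1 TPM, IL6 among them at 0.449 TPM. The order of the first 3 was not the same in each group. In oxaliplatin TIMP1 (105 ± 1.14 TPM), PLAU (99.4 ± 7.71 TPM) and TIMP2 (96.5 ± 97.2 TPM) overlapped (mean ± SD, n = 3 each). In sorafenib PLAU (193 ± 5.06 TPM) lay above TIMP1 (147 ± 10.9 TPM) in every library, and TIMP2 ran from 41.3 to 225 TPM. In untreated libraries TIMP2 (214 ± 5.79 TPM) lay above both TIMP1 (152 ± 13.8 TPM) and PLAU (134 ± 6.44 TPM) in every library.

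**Figure D1:**
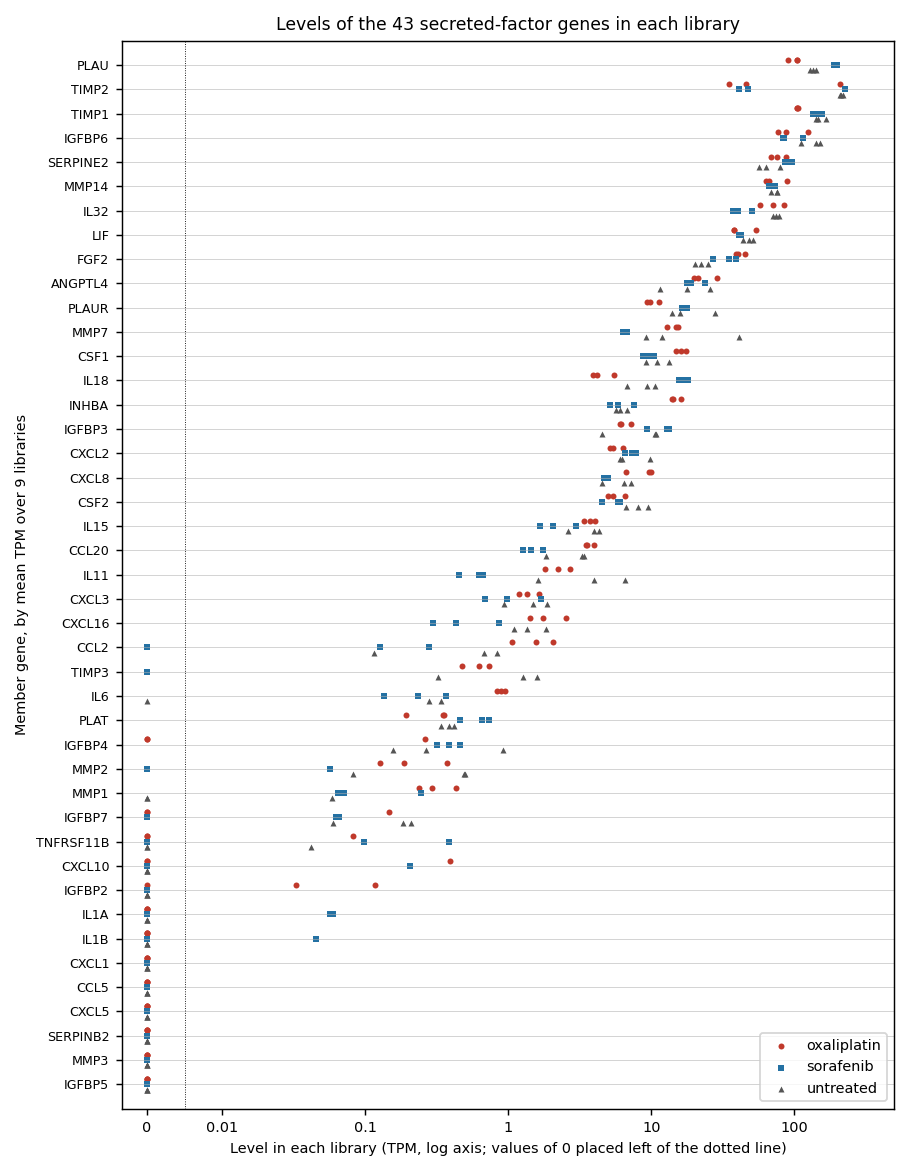
Level of each of the 43 members in each library, in TPM on a log axis, with members ordered down the page by mean TPM; circles are oxaliplatin, squares sorafenib and triangles untreated libraries, and values of 0 stand left of the dotted line. PLAU, at a mean of 142 TPM, is at the top, and the 6 members at the foot had 0 counts in all 9 libraries.

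Summed by role, the plasminogen activator system held 183 to 191 TPM in oxaliplatin, 301 to 304 TPM in sorafenib and 219 to 221 TPM in untreated libraries. The 3 groups did not overlap, and within each group the libraries lay close together. The 10 chemokines summed to 20.3 to 25.5 TPM in oxaliplatin, 15.0 to 15.7 TPM in sorafenib and 15.9 to 24.0 TPM in untreated libraries, and in no library did they exceed 3.40% of the members' sum. The growth factors summed to 93.8 to 107 TPM in oxaliplatin, 70.8 to 81.5 TPM in sorafenib and 59.8 to 71.9 TPM in untreated libraries, with oxaliplatin above both other groups. TPM was not scaled between libraries as CPM was, so groups compare differently on the 2 scales. SERPINE2, for example, averaged 268 CPM in both oxaliplatin and untreated libraries, but 77.3 and 66.4 TPM. The tissue inhibitors of metalloproteinases ran from 142 to 313 TPM in oxaliplatin, 196 to 361 TPM in sorafenib and 351 to 389 TPM in untreated libraries, and this wide range came from TIMP2. In bulk RNA, fewer cells expressing a gene and less RNA per cell cannot be told apart.

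**Figure D2:**
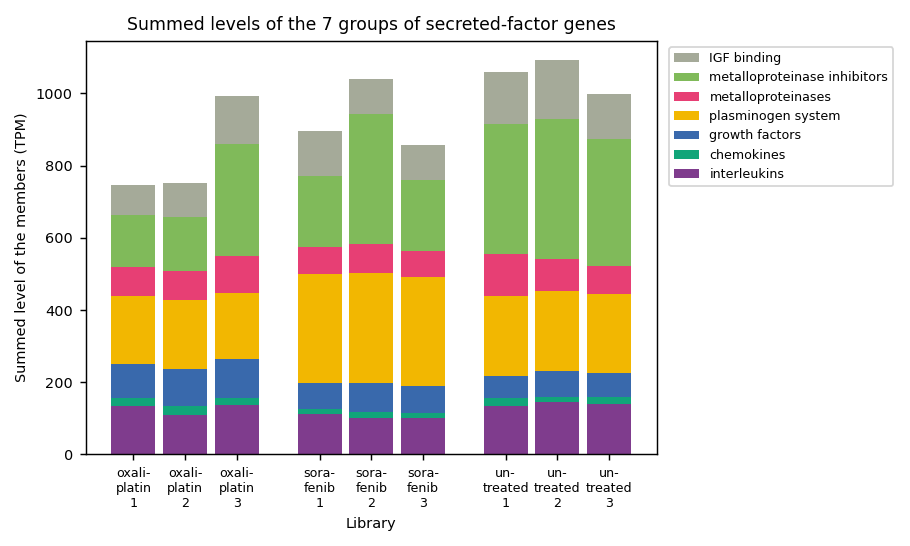
Summed TPM of the members in each library, stacked by role, with oxaliplatin, sorafenib and untreated libraries from left to right. The plasminogen activator system is tallest in sorafenib (301 to 304 TPM), and the metalloproteinase inhibitors differ between libraries of the same drug.

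In oxaliplatin against untreated, 8 of the 29 tested members were called, 2 higher (INHBA and FGF2) and 6 lower (IL18, CSF2, PLAU, PLAUR, TIMP1 and IGFBP6). That is 27.6% of the members, beside 31.7% of all 16159 genes tested, so the share of calls was near that of all genes. By direction the shares of all genes were 16.2% higher and 15.5% lower. The median log2 fold change was -0.38 over the 29 members and 0.02 over all genes tested. The oxaliplatin and untreated values did not overlap for 14 of the 29, or 48.3%, beside 48.1% of all genes. Of these, 5 lay above (24.9% of all genes) and 9 below (23.2% of all genes). The members that passed the filter include any that passed through the group where they were high, so these counts describe the tested members and not all 43. IL6, among the 5 that lay above, was such a member.

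**Figure D3:**
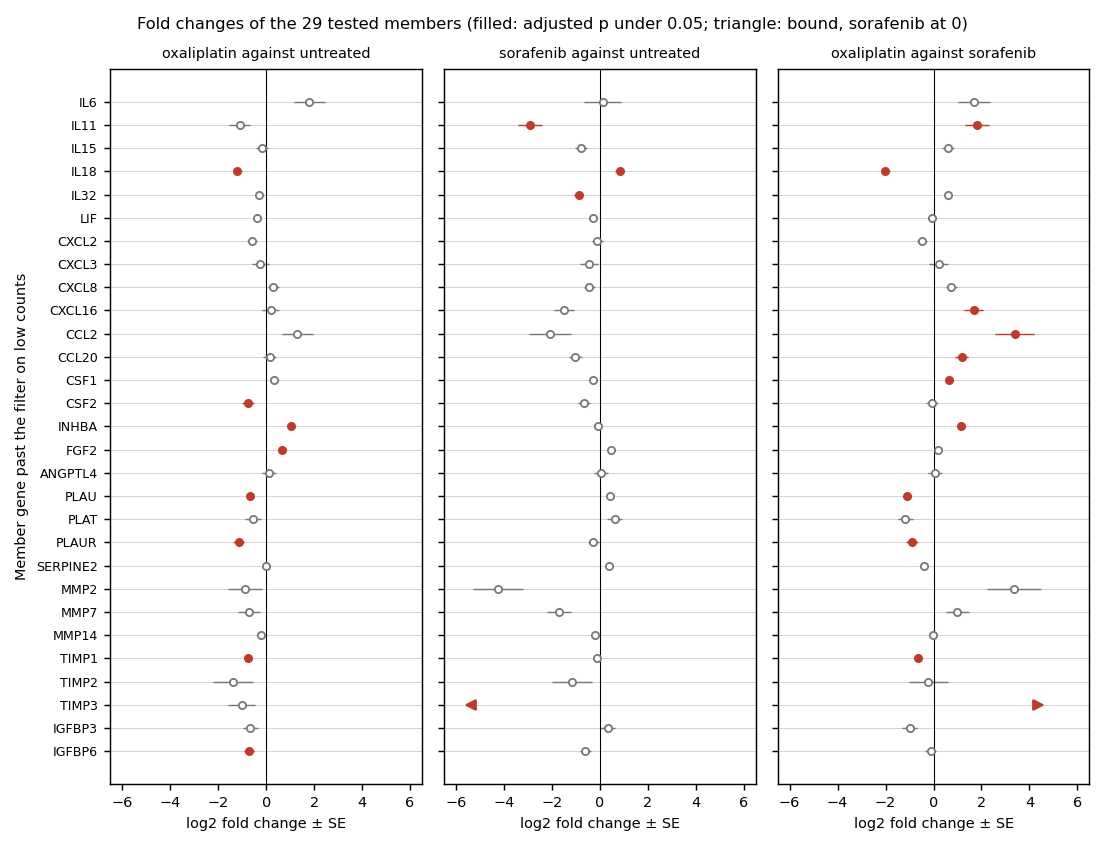
Log2 fold change (± SE) of the 29 tested members in each drug against untreated and in oxaliplatin against sorafenib. Filled points were called at an adjusted p under 0.05. Triangles mark TIMP3 at the bound set by a floor of 3 counts, since its 3 sorafenib libraries had 0 counts. In oxaliplatin against untreated the 2 members called higher are INHBA and FGF2, and the bound of TIMP3 in sorafenib against untreated lies at -5.39.

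INHBA, which encodes the beta A subunit of activins (chr7:41667168-41705834, GRCh38), had 46.8, 51.4 and 44.8 CPM in oxaliplatin libraries, 19.2, 25.4 and 20.6 CPM in sorafenib libraries and 21.9, 21.9 and 25.8 CPM in untreated libraries. All 3 oxaliplatin values lay above all 6 others, and sorafenib and untreated overlapped. INHBA rose in oxaliplatin against untreated (log2 fold change 1.04 ± 0.14, adjusted p = 0.00166) and against sorafenib (1.13 ± 0.14, adjusted p = 0.00133), but was at -0.09 ± 0.14 in sorafenib against untreated (adjusted p = 0.711). FGF2, the gene of basic fibroblast growth factor (chr4:122826708-122898236), had 106, 119 and 105 CPM in oxaliplatin, 82.5, 109 and 100 CPM in sorafenib and 65.9, 64.4 and 78.1 CPM in untreated libraries. Both drug groups lay above the untreated libraries. FGF2 rose in oxaliplatin (0.66 ± 0.13, adjusted p = 0.00614), and its change in sorafenib was 0.48 ± 0.13 (adjusted p = 0.0602). FGF2 shares exon sequence with NUDT6 on the opposite strand, which had at most 148 counts in a library. Both calls in oxaliplatin held in all 18 alternatives.

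CSF1, the gene of macrophage colony-stimulating factor (chr1:109910242-109930992), had 32.1, 33.9 and 36.6 CPM in oxaliplatin, 21.4, 23.0 and 21.6 CPM in sorafenib and 31.0, 27.6 and 22.9 CPM in untreated libraries. Oxaliplatin lay above sorafenib in every library, and the difference was called (0.63 ± 0.13, adjusted p = 0.0176). That call ended without oxaliplatin 1 or 2 (adjusted p = 0.0517 and 0.0526), without sorafenib 1 or 3 (0.0557 and 0.0617) and with the replicate block (0.0546), over a range of 0.000851 to 0.0617. CSF2, the gene of granulocyte-macrophage colony-stimulating factor (chr5:132073789-132076170), had 1.70, 1.52 and 2.01 CPM in oxaliplatin, 2.06, 1.93 and 1.5 CPM in sorafenib and 2.29, 3.48 and 2.92 CPM in untreated libraries. The untreated values lay above both drug groups. It was called lower in oxaliplatin (-0.74 ± 0.25, adjusted p = 0.0466), but 14 of 18 alternatives ended this call, with adjusted p-values up to 0.165. These were all but untreated 1 of the libraries left out (0.0508 to 0.165 for the other 8), DESeq2 (0.056), scaling by library size (0.0773), no filter (0.0916), a fit of the 2 groups alone (0.068), the replicate block (0.0943) and the correction for GC content and length (0.0873). ANGPTL4, which encodes an inhibitor of lipoprotein lipase, was at 20.6 TPM over all libraries and was not called.

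Urokinase and its receptor fell in oxaliplatin, and the level of urokinase stood highest in sorafenib. PLAU, the gene of urokinase (chr10:73909177-73917496), had 106, 118 and 119 CPM in oxaliplatin libraries, 264, 228 and 237 CPM in sorafenib libraries and 165, 195 and 182 CPM in untreated libraries. The 3 groups did not overlap. PLAU fell in oxaliplatin against untreated (log2 fold change -0.66 ± 0.11, adjusted p = 0.0031) and against sorafenib (-1.09 ± 0.11, adjusted p = 0.000447), and both calls held in all 18 alternatives. In sorafenib against untreated it was at 0.43 ± 0.11 with an adjusted p of 0.051, just outside the threshold (range 0.0128 to 0.147, past it in 4 of 18 alternatives). PLAU overlaps C10orf55 on the opposite strand over 31.05% of its exon bases, and C10orf55 had at most 32 counts in a library. The genes whose log2 CPM followed PLAU most closely over the 9 libraries, outside the members, were GLUD1, UPP1 and ITGB5 (Pearson correlation 0.991, 0.989 and 0.987, as a description of libraries that share their groups). ITGB5, an integrin gene, had 104, 106 and 127 CPM in oxaliplatin, 370, 330 and 331 CPM in sorafenib and 225, 231 and 217 CPM in untreated libraries.

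PLAUR, the gene of the urokinase receptor (chr19:43646095-43670547), had 17.4, 19.3 and 16.1 CPM in oxaliplatin, 34.5, 32.2 and 30.9 CPM in sorafenib and 27.1, 33.5 and 56.9 CPM in untreated libraries. The oxaliplatin values lay below all others, and the untreated values were the most uneven. PLAUR fell in oxaliplatin against untreated (-1.15 ± 0.24, adjusted p = 0.00718), a call that held in all 18 alternatives. Against sorafenib it was also called lower (-0.89 ± 0.24, adjusted p = 0.043), but 11 of 18 alternatives ended that call (adjusted p 0.00643 to 0.13 over all of them). These included leaving out untreated 2 (0.0509), oxaliplatin 1, 2 or 3 (0.13, 0.0943 and 0.0964) or sorafenib 1, 2 or 3 (0.122, 0.088 and 0.0892). PLAT, the gene of tissue plasminogen activator, was low in all libraries, with 0.488 to 0.917 CPM in oxaliplatin, 1.25 to 2.04 CPM in sorafenib and 1.05 to 1.27 CPM in untreated libraries, and was not called. SERPINE2, the gene of protease nexin-1, which inhibits urokinase and thrombin, had 308, 259 and 237 CPM in oxaliplatin, 343, 347 and 353 CPM in sorafenib and 305, 265 and 233 CPM in untreated libraries. It lay higher in every sorafenib library than in any other, but was not called (0.38 ± 0.13 against untreated, adjusted p = 0.109, and -0.38 ± 0.13 for oxaliplatin against sorafenib, adjusted p = 0.0927). The correction for GC content and length changed this. SERPINE2 was then called in oxaliplatin against untreated (adjusted p = 0.022, beside 0.998) and against sorafenib (0.0148). For sorafenib against untreated the adjusted p became 0.509.

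The AP-1 match TGANTCA is shown in PLAUR, called lower in oxaliplatin, and in MMP7, the gene of matrilysin, which had the same letters and was not called. Both windows are the 250 bases before the start, 5′ to 3′, from RefSeq (GRCh38.p14), with the match in capitals: chr19:43670170-43670419, minus strand, and chr11:102530748-102530997, minus strand.
PLAUR: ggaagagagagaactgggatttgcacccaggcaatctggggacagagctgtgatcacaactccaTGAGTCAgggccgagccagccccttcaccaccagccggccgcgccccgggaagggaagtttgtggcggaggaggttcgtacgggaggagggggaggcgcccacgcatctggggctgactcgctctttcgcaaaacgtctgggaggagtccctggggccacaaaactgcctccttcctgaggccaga
MMP7: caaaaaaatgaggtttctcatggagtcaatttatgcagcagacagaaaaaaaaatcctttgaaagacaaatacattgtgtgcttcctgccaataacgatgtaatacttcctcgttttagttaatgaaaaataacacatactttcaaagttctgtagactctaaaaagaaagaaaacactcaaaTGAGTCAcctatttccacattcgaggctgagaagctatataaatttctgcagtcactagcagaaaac
The match began 186 bases before the start of PLAUR and 67 before that of MMP7. On both strands, 6.57% of the 35116 windows hold TGANTCA, as did 6 of the 29 members with a window.

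Of the metalloproteinases, MMP14 and MMP7 carried nearly all of the level. MMP14, the gene of a membrane-bound collagenase (chr14:22836560-22849027), had 118, 109 and 153 CPM in oxaliplatin, 134, 133 and 125 CPM in sorafenib and 148, 158 and 142 CPM in untreated libraries, and was not called. MMP7 (chr11:102520508-102530750) had 13.7, 13.7 and 11.6 CPM in oxaliplatin, 7.06, 6.30 and 6.22 CPM in sorafenib and 41.7, 12.9 and 9.81 CPM in untreated libraries. Untreated 1 stood far above the other libraries, while all sorafenib values lay below all others. MMP7 was at -1.71 ± 0.49 in sorafenib against untreated (adjusted p = 0.0774), and without untreated 1 it was at -0.80 ± 0.18 (adjusted p = 0.029). Without untreated 2 or 3 it was at -1.98 ± 0.49 and -2.06 ± 0.40 (adjusted p = 0.125 and 0.0567). Over all alternatives its adjusted p ran from 0.00222 to 0.241. MMP2, the gene of a gelatinase, was scarce, with 8, 13 and 4 counts in oxaliplatin, 0, 2 and 0 counts in sorafenib and 3, 21 and 21 counts in untreated libraries. Its summed counts per depth in sorafenib were 0.0439 of those in untreated (95% interval 0.00516 to 0.168, counting error only). In sorafenib against untreated MMP2 was at -4.25 ± 1.06 (adjusted p = 0.0501), with 5 of the alternatives past the threshold. Without untreated 1, 2 or 3 the adjusted p was 0.016, 0.156 and 0.14.

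The tissue inhibitors of metalloproteinases behaved differently from each other. TIMP1 (chrX:47582408-47586789) had 64.7, 61.6 and 62.0 CPM in oxaliplatin, 109, 84.8 and 97.0 CPM in sorafenib and 98.5, 121 and 101 CPM in untreated libraries. The oxaliplatin values lay close together and below all others. TIMP1 fell in oxaliplatin against untreated (-0.77 ± 0.12, adjusted p = 0.00312), a call that held in all 18 alternatives, and against sorafenib (-0.63 ± 0.12, adjusted p = 0.014), where it ended without oxaliplatin 1 or 2 (adjusted p = 0.0527 and 0.0577, range 0.000485 to 0.0577). In sorafenib against untreated TIMP1 was at -0.14 ± 0.12 (adjusted p = 0.511).

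TIMP2 (chr17:78852977-78925387) had 78.7, 99.2 and 454 CPM in oxaliplatin 1 to 3, 105, 517 and 112 CPM in sorafenib 1 to 3 and 522, 581 and 542 CPM in untreated 1 to 3. Oxaliplatin 3 and sorafenib 2 stood near the untreated level, and the other 4 drug libraries lay between 78.7 and 112 CPM. The highest value was 5.77 times the lowest in oxaliplatin, 4.93 times in sorafenib and 1.11 times in untreated. Of the 4192 genes that averaged 50 CPM or more, 0.239% had a wider ratio in oxaliplatin and 0.358% in sorafenib. TIMP2 was not called in either drug against untreated (-1.38 ± 0.83, adjusted p = 0.237 in oxaliplatin and -1.17 ± 0.83, adjusted p = 0.416 in sorafenib). Without oxaliplatin 3 it was at -2.62 ± 0.77 (adjusted p = 0.0444) and without sorafenib 2 at -2.34 ± 0.79 (adjusted p = 0.229). Without oxaliplatin 1 or 2 it was at -0.99 ± 0.90 and -1.05 ± 0.94 in oxaliplatin (adjusted p = 0.475 and 0.456). Without sorafenib 1 or 3 it was at -0.80 ± 0.90 and -0.82 ± 0.92 in sorafenib (adjusted p = 0.598 and 0.69). TIMP2 shares 3.52% of its exon bases with CEP295NL on the same strand, which had 18 to 34 counts over all 9 libraries.

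TIMP3 (chr22:32801701-32863043) had 1.15, 1.30 and 0.851 CPM in oxaliplatin, 0 counts in all 3 sorafenib libraries and 0.645, 3.43 and 2.71 CPM in untreated libraries. Against a floor of 3 counts over the group, TIMP3 was 41.9-fold lower in sorafenib than in untreated (adjusted p = 0.0133). On the same floor TIMP3 was 20.3-fold higher in oxaliplatin than in sorafenib (adjusted p = 0.0141). With counting error in both groups, these folds were at least 33.5 and 16.0 (exact 95% limits). The first call ended in a fit of the 2 groups alone (adjusted p = 0.0671) and without sorafenib 3 (adjusted p = 0.0507), over a range of 5.54e-07 to 0.0671. Of 8 markers of fibroblasts and endothelium, COL1A1 and PDGFRB were lower in sorafenib together with TIMP3 and MMP2. The 8 markers summed to 16.6 to 24.7 CPM in oxaliplatin, 4.13 to 4.94 CPM in sorafenib and 11.4 to 48.9 CPM in untreated libraries, LUM, VWF and CDH5 had 0 counts in every library, and 2 of the 8 could be tested, both called lower in sorafenib than in untreated. PECAM1, an endothelial gene, had 0.706, 0.17 and 0.214 CPM in sorafenib and at most 0.117 CPM in untreated libraries, and COL1A2 and DCN had at most 0.106 and 0.114 CPM in any library. COL1A1, a collagen gene, had 15.2, 12.6 and 19.8 CPM in oxaliplatin, 1.68, 1.93 and 1.18 CPM in sorafenib and 6.04, 43 and 40.5 CPM in untreated libraries. IL11 and CCL2 were also lowest in sorafenib. The part of other cells in the values of TIMP3, MMP2, IL11 and CCL2 was not tested.

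IGFBP6 (chr12:53097436-53102345), whose product prefers IGF-II, had 40.9, 45.0 and 64.6 CPM in oxaliplatin, 70.0, 46.0 and 47.5 CPM in sorafenib and 82.4, 95.1 and 69.5 CPM in untreated libraries. The oxaliplatin values lay below the untreated ones, and sorafenib 1 reached into them. IGFBP6 was called lower in oxaliplatin (-0.72 ± 0.22, adjusted p = 0.0328), but the call ended without untreated 1 or 2 (adjusted p = 0.0629 and 0.11), without oxaliplatin 1 or 2 (0.113 and 0.105), with scaling by library size (0.054) and with the replicate block (0.0696), over a range of 0.0096 to 0.113. IGFBP3, the main IGF carrier of serum, had 11.1, 10.7 and 12.7 CPM in oxaliplatin, 19.2, 24.9 and 24.7 CPM in sorafenib and 9.03, 23.1 and 22.8 CPM in untreated libraries. Untreated 1 stood with the oxaliplatin libraries, and IGFBP3 was not called (oxaliplatin against untreated -0.67 ± 0.31, adjusted p = 0.121). Without untreated 1 it was at -1.0 ± 0.15 in oxaliplatin against untreated (adjusted p = 0.00279). Without untreated 2 or 3 it was at -0.48 ± 0.33 and -0.49 ± 0.33 (adjusted p = 0.334 and 0.315).

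In sorafenib against untreated, 4 of the 29 tested members were called, 1 higher (IL18) and 3 lower (IL11, IL32 and TIMP3). That is 13.8% of the members, beside 4.80% of all genes, of which 2.82% were higher and 1.97% lower. The median log2 fold change was -0.30 over the members and 0.0 over all genes, and the groups did not overlap for 16 of 29 members (55.2%), beside 29.8% of all genes. Of these, 4 lay above (15.5% of all genes) and 12 below (14.3% of all genes). The count of members called higher was 0 without untreated 2 or 3, oxaliplatin 1, or sorafenib 2 or 3, and 2 without sorafenib 1. The count called lower was 1 without untreated 3 or sorafenib 2, 0 without sorafenib 3 and 6 without untreated 1. Both drugs were set against the same 3 untreated libraries, so their fold changes are not independent of each other.

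IL18, an interleukin of the IL-1 family (chr11:112143253-112164096), had 4.08, 5.53 and 4.26 CPM in oxaliplatin, 19.6, 16.7 and 20 CPM in sorafenib and 12.1, 8.40 and 11.4 CPM in untreated libraries. The 3 groups did not overlap, with oxaliplatin lowest and sorafenib highest. IL18 fell in oxaliplatin against untreated (-1.20 ± 0.19, adjusted p = 0.003) and against sorafenib (-2.02 ± 0.19, adjusted p = 0.000367), and both calls held in all 18 alternatives. It was called higher in sorafenib against untreated (0.82 ± 0.18, adjusted p = 0.0386). This call ended without untreated 2 or 3 (adjusted p = 0.135 and 0.0999), oxaliplatin 1 (0.0592), or sorafenib 2 or 3 (0.0942 and 0.14), in a fit of the 2 groups alone (0.0641) and with the replicate block (0.102), over a range of 0.00257 to 0.14.

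IL11, a cytokine of the IL-6 family (chr19:55364382-55370463), had 1.93, 2.28 and 2.80 CPM in oxaliplatin, 0.543, 0.681 and 0.750 CPM in sorafenib and 1.88, 8.18 and 4.88 CPM in untreated libraries. Sorafenib lay below both other groups, and untreated 1 lay at the oxaliplatin level. IL11 was called lower in sorafenib against untreated (-2.91 ± 0.49, adjusted p = 0.0153), a call that was lost on leaving out untreated 3 (adjusted p = 0.0522), sorafenib 2 (0.0751) or sorafenib 3 (0.0733), over a range of 2.06e-06 to 0.0751. In oxaliplatin against sorafenib it was called higher (1.81 ± 0.50, adjusted p = 0.0481), and leaving out any oxaliplatin or sorafenib library, or untreated 3, ended that call (adjusted p 0.0703 to 0.152, range over all alternatives 0.00711 to 0.152). In oxaliplatin against untreated it was at -1.10 ± 0.44 (adjusted p = 0.0794), and at -1.49 ± 0.28 (adjusted p = 0.00586) without untreated 1. Without untreated 2 or 3 it was at -0.55 ± 0.39 and -1.12 ± 0.50 (adjusted p = 0.346 and 0.141).

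IL32, a cytokine that induces other inflammatory cytokines (chr16:3065297-3082192), had 108, 70.7 and 88.5 CPM in oxaliplatin, 73, 52.8 and 50.2 CPM in sorafenib and 104, 117 and 105 CPM in untreated libraries. Sorafenib lay below untreated in every library. IL32 was called lower in sorafenib against untreated (-0.89 ± 0.18, adjusted p = 0.0285), and the call ended without untreated 2 or 3 (adjusted p = 0.105 and 0.079), sorafenib 2 or 3 (0.121 and 0.12) and with the replicate block (0.0521), over a range of 0.000509 to 0.121. LIF, another cytokine of the IL-6 family, had 59.6, 57.8 and 82.4 CPM in oxaliplatin, 75.5, 66.0 and 69.9 CPM in sorafenib and 76.1, 89.2 and 94.3 CPM in untreated libraries, and was not called. IL15, a growth factor of lymphocytes, ran from 10.3 to 12.3 CPM in oxaliplatin, 5.57 to 9.59 CPM in sorafenib and 8.98 to 15.9 CPM in untreated libraries, and was not called.

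IL6, the cytokine most often taken as the sign of this secretory state, stayed near the limit of detection, and its values and those of CCL2 are given in full by a choice made after they were seen. IL6 had 16, 14 and 11 counts in oxaliplatin, 4, 2 and 6 counts in sorafenib and 0, 6 and 5 counts in untreated libraries. All 3 oxaliplatin libraries lay above all others, at 0.669 to 0.759 CPM, but the difference from untreated was not called (log2 fold change 1.80 ± 0.66, adjusted p = 0.0622). IL6 passed the filter on low counts only through oxaliplatin, the group where it was high. Its separation and its test therefore describe these libraries and do not support a rise. With scaling by library size its adjusted p was 0.0477, within a range of 0.0477 to 0.142.

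In oxaliplatin against sorafenib, 11 of the 29 tested members were called, 7 higher (IL11, CXCL16, CCL2, CCL20, CSF1, INHBA and TIMP3) and 4 lower (IL18, PLAU, PLAUR and TIMP1). That is 37.9% of the members, beside 10.3% of all genes, of which 5.20% were higher and 5.07% lower. The groups did not overlap for 20 of 29 members (69.0%), beside 34.9% of all genes. Of these, 12 lay above (17.3% of all genes) and 8 below (17.6% of all genes). IL6, among the 12, passed the filter only through oxaliplatin, so these counts too describe the tested members only. The median log2 fold change was 0.18 over the members and -0.01 over all genes. The count called higher was 2 without oxaliplatin 1 or 2, 3 without sorafenib 1 or 3 and 4 without sorafenib 2, and the count called lower was 2 without oxaliplatin 1 or 2. The calls of IL18, PLAU, INHBA and TIMP3 between the drugs held in all 18 alternatives.

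The 3 chemokines among these calls were low in every library. CCL2, the monocyte attractant (chr17:34255218-34257203), had 27, 15 and 26 counts in oxaliplatin, 0, 4 and 2 counts in sorafenib and 10, 14 and 2 counts in untreated libraries. Its summed counts per depth in oxaliplatin were 10.9 times those in sorafenib (95% interval 4.77 to 30.8, counting error only). The test of edgeR put its log2 fold change at 3.38 ± 0.80 (adjusted p = 0.0275). CCL20, an attractant of dendritic cells and Th17 cells (chr2:227805739-227817564), had 2.20, 2.44 and 2.19 CPM in oxaliplatin, 1.03, 1.14 and 0.857 CPM in sorafenib and 2.29, 1.38 and 2.49 CPM in untreated libraries. It was called higher in oxaliplatin than in sorafenib (1.17 ± 0.28, adjusted p = 0.0287), with sorafenib below both other groups in every library. CXCL16, a chemokine anchored in the membrane until it is shed (chr17:4733531-4739928), had 1.56, 2.71 and 1.88 CPM in oxaliplatin, 0.543, 0.341 and 1.02 CPM in sorafenib and 2.23, 1.44 and 1.75 CPM in untreated libraries, and it shares exon bases with MED11 on the opposite strand. It too was called higher in oxaliplatin than in sorafenib (1.67 ± 0.41, adjusted p = 0.0294). The call of CCL2 ended without oxaliplatin 1, 2 or 3 (adjusted p = 0.0817, 0.0512 and 0.0563) or sorafenib 1 or 3 (0.0816 and 0.0874), with a range of 0.00268 to 0.0874. That of CCL20 ended without oxaliplatin 1 or 2 (0.0821 and 0.0864) or sorafenib 1, 2 or 3 (0.0816, 0.0595 and 0.0981), with a range of 0.0163 to 0.0981. That of CXCL16 ended without oxaliplatin 1 or 2 (0.0572 and 0.102) or sorafenib 1 or 2 (0.101 and 0.0787), with a range of 0.00541 to 0.102. With the replicate block all 3 calls ended (adjusted p = 0.0673, 0.0751 and 0.069 for CCL2, CCL20 and CXCL16).

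**Figure D4:**
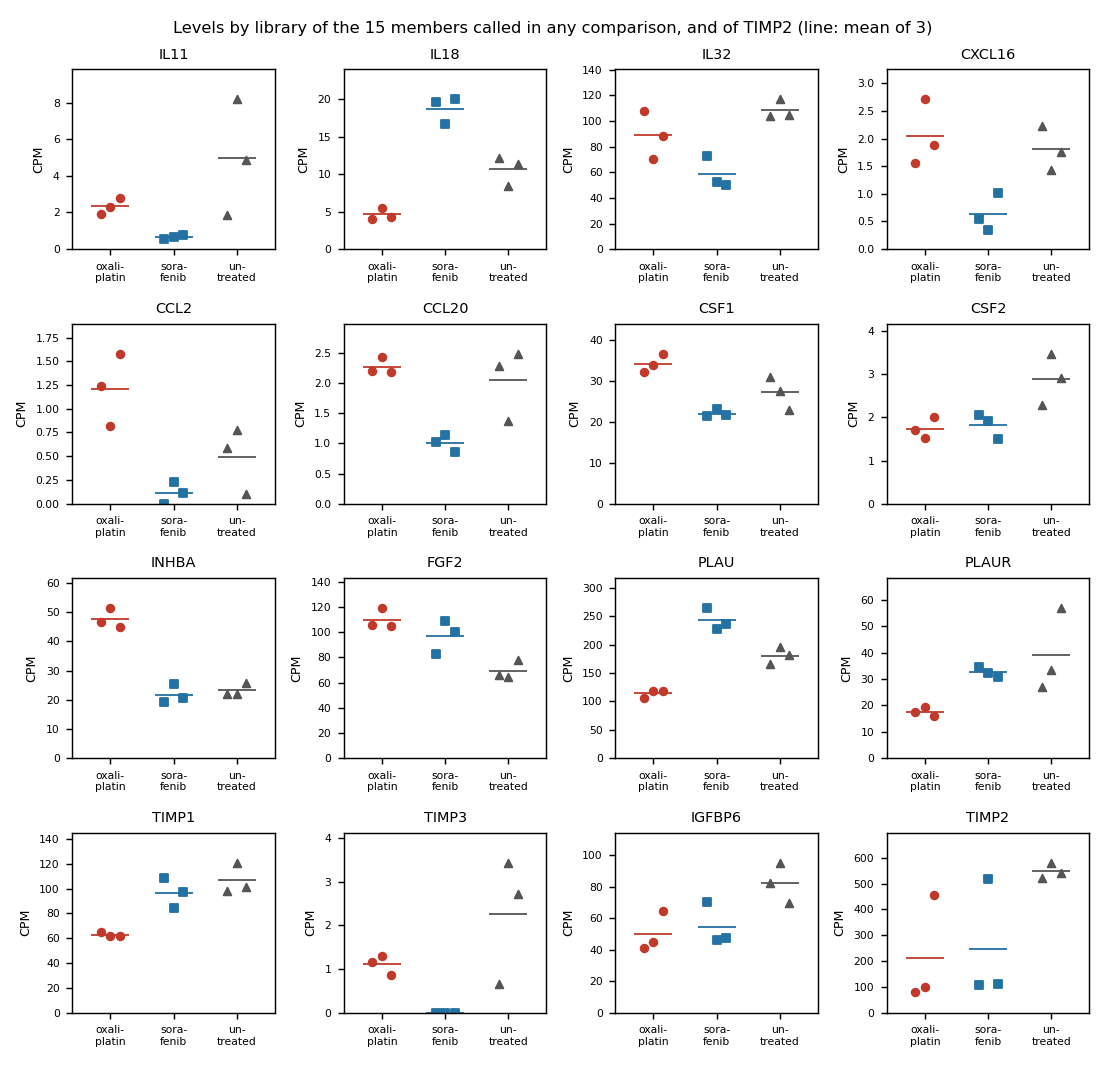
CPM in each library of the 15 members called in any comparison and of TIMP2, with oxaliplatin, sorafenib and untreated from left to right; points are libraries and lines are means of 3, and each panel has its own axis from 0. INHBA stands at 44.8 to 51.4 CPM in oxaliplatin above all other libraries, and TIMP2 splits within oxaliplatin and within sorafenib.

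Around the members, genes upstream and downstream of the secreted factors were counted from lists drawn up beside them. Of 22 tested regulators of the secretory state, out of 24 listed, 9 were higher and 0 lower in oxaliplatin against untreated, and 0 were higher and 1 lower in sorafenib. Over all genes, 16.2% were higher and 15.5% lower in oxaliplatin, and 2.82% higher and 1.97% lower in sorafenib. The median log2 fold change of the regulators was 0.29 in oxaliplatin and 0.05 in sorafenib, beside 0.02 and 0.0 over all genes. Of the 9 calls, those of NFKB1, MAP3K7, NOTCH1 and MTOR ended in 11, 13, 3 and 2 of 18 alternatives. The sorafenib call, of ZFP36L1, ended in 7. Genes with such unstable calls, and the NF-kB and C/EBP genes given next, are named after their values were seen. RELA, RELB, NFKB2, CEBPB and CEBPD were not called in either drug against untreated. In oxaliplatin they were at -0.18 ± 0.37, -0.15 ± 0.18, -0.15 ± 0.13, -0.63 ± 0.22 and 0.81 ± 0.31 (adjusted p = 0.743, 0.56, 0.401, 0.0556 and 0.0717). STAT3, which carries the signal of IL-6 family cytokines, rose to 150 ± 0.576 CPM in oxaliplatin, against 85.4 ± 9.03 CPM in untreated libraries (log2 fold change 0.81 ± 0.11, adjusted p = 0.00167). Also higher in oxaliplatin were KMT2A, a histone methyltransferase (1.68 ± 0.25, adjusted p = 0.00259), ZFP36L1, a protein that destabilises cytokine mRNAs (0.57 ± 0.11, adjusted p = 0.00531), and the kinase JAK2 (0.63 ± 0.14, adjusted p = 0.00868, but 0.0514 after a correction for GC content and length). Of 13 tested receptors, out of 25 listed, 5 were higher and 0 lower in oxaliplatin, and 1 was higher in sorafenib, with medians of 0.78 and 0.22. The oxaliplatin call of IL1RAP, a subunit of the interleukin-1 receptor, ended in 9 alternatives. OSMR, the oncostatin M receptor, rose in both, to 121 ± 11.5 CPM in oxaliplatin and 115 ± 15.2 CPM in sorafenib, against 57.4 ± 3.52 CPM in untreated libraries (adjusted p = 0.00118 and 0.00444). Its partner IL6ST, the shared receptor of the IL-6 family, rose in oxaliplatin (0.93 ± 0.19, adjusted p = 0.00658), as did the LIF receptor LIFR (1.15 ± 0.23, adjusted p = 0.00651) and LRP1, which clears protease and inhibitor complexes (1.72 ± 0.26, adjusted p = 0.00278). LIF, which binds LIFR and IL6ST, was not called in either drug against untreated (adjusted p = 0.0817 and 0.249).

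Of 16 tested further proteases and inhibitors, out of 25 listed, 6 were higher and 2 lower in oxaliplatin, and 0 were higher and 1 lower in sorafenib, with medians of 0.32 and -0.01. Beside this list and those that follow, 16.2% of all genes tested were higher and 15.5% lower in oxaliplatin. In sorafenib 2.82% of all genes were higher and 1.97% lower. The oxaliplatin calls of RECK and CTSD ended in 12 and 9 alternatives, and the sorafenib call of MMP24 in 6. ADAMTS1, a secreted protease of matrix proteoglycans, rose in oxaliplatin (0.94 ± 0.13, adjusted p = 0.00166), and MMP17 fell (-1.10 ± 0.22, adjusted p = 0.00661). ADAM17, the sheddase of membrane-bound ligands, and MMP16 were called higher in oxaliplatin (0.73 ± 0.15 and 1.28 ± 0.27, adjusted p = 0.00674 and 0.00771), but at 0.176 and 0.0738 after the correction for GC content and length. Of 8 tested genes of the IGF axis, out of 13 listed, 3 were higher in oxaliplatin and 2 in sorafenib, with medians of 0.65 and 0.27, and the sorafenib call of STC1 ended in 4 alternatives. IRS2, an adaptor of the insulin and IGF receptors, rose in sorafenib (1.27 ± 0.14, adjusted p = 0.00191) and IRS1 in oxaliplatin (1.04 ± 0.18, adjusted p = 0.00409). IGF2R, the receptor that clears IGF-II, was called higher in oxaliplatin (0.63 ± 0.16, adjusted p = 0.0165), but at 0.406 after the same correction and at 0.066, 0.0583 and 0.0529 without untreated 2, untreated 3 or oxaliplatin 1. PAPPA2, a protease that cleaves IGF binding proteins, was called higher in oxaliplatin (0.68 ± 0.15, adjusted p = 0.00851), but at 0.137 after the correction for GC content and length. Of 18 further tested secreted factors, out of 32 listed, 5 were higher and 1 lower in oxaliplatin, and 3 were higher in sorafenib, with medians of 0.22 and 0.13. The 3 sorafenib calls, of EREG, SPP1 and FN1, ended in 4, 10 and 9 alternatives, and the oxaliplatin calls of NRG1 and BMP2 in 8 and 4. TGFB1 fell to 117 ± 20.7 CPM in oxaliplatin, against 198 ± 39.0 CPM in untreated libraries (-0.76 ± 0.17, adjusted p = 0.00869). FN1 and THBS1, genes of the matrix proteins fibronectin and thrombospondin-1, rose in oxaliplatin (4.34 ± 0.17 and 1.35 ± 0.13, adjusted p = 3.3e-06 and 0.000822). VEGFA was called higher in oxaliplatin (0.72 ± 0.15, adjusted p = 0.00674), but at 0.118 after the correction for GC content and length.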

How the data were processed

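The authors deposited raw read counts of 60683 genes for 9 libraries, 3 per group, made with featureCounts against GRCh38, per the submitters' processing notes, which also name DESeq2. The aligner, annotation release and strand setting are not given in the sources used here. Members, gene lists and tests were chosen with earlier results of these data known.

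The filter on low counts was filterByExpr of edgeR 4.0.16 under R 4.3.3, and 16159 genes passed it. Libraries were scaled by TMM factors of 0.944 to 1.05, and a robust quasi-likelihood fit over all 9 libraries had a mean for each group (common biological coefficient of variation 0.224). Tests were 2-sided. A standard error is the absolute log2 fold change over the square root of F. Ratios of summed counts have exact binomial intervals. TPM used exon lengths from GENCODE 29, since the files give none; 96.4% of genes and all 43 members have one. Members called in a comparison with a mean of at least 1 CPM are given in full, and up to 4 called genes of smallest p per related list are named. Alternatives were DESeq2 1.42.0, RLE factors, library size only, other filters, fits of 2 groups, the replicate number as a block, a loess correction (span 0.5) for GC content and length, and each library left out. The omission of untreated 1 and sorafenib 1 together was chosen after seeing the data. The procedure was tested on simulated data.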

Additional observations from a re-analysis of the deposited data

How the results depend on the processing

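No called member changed its direction under any of the 18 alternatives, which all draw on the same 9 libraries. The 23 calls had 413 values under an alternative. Of these, 331 kept the call and 82 lost it, and 10 of the 23 calls held throughout. Members called higher in oxaliplatin against untreated numbered 2, and 4 with scaling by library size only, under which the median log2 fold change of all genes was 0.13, beside 0.02. In sorafenib against untreated, members called higher numbered 1, and 2 with scaling by library size, a filter at a mean of 1 CPM or the correction for GC content and length, 3 with DESeq2, and 0 in a fit of the 2 groups alone or with the replicate block (0 to 2 with a library left out). Members called lower numbered 3, 7 with DESeq2 and 6 with the GC and length correction (0 to 6 with a library left out). Without both untreated 1 and sorafenib 1, chosen after seeing the data, these were 2 and 6. In oxaliplatin against sorafenib, members called higher numbered 7, and 3 with the replicate block (2 to 10 with a library left out), and members called lower 4 (2 to 5). All genes called in sorafenib against untreated numbered 775, 1804 with DESeq2, 311 in a fit of the 2 groups, 1231 with the GC and length correction, 184 with the replicate block, 2934 without untreated 1 and sorafenib 1, and 113 (sorafenib 3) to 1743 (sorafenib 1) with a library left out. In oxaliplatin against sorafenib they numbered 1659, 809 with the replicate block, and 572 (oxaliplatin 1) to 1949 (untreated 1) with a library left out, and in oxaliplatin against untreated 5123 and 2913 (oxaliplatin 1) to 5403 (untreated 1). Members called lower there numbered 6, and 4 to 8 with a library left out, and those called higher 2 to 3. With the GC and length correction, 1882 genes were higher and 3211 lower in oxaliplatin against untreated, beside 2619 and 2504, and with scaling by library size 3395 and 1794. The causes were not tested. No label says whether the replicate numbers pair the libraries, and no pairing was seen. Deviations of same-numbered libraries from their group means correlated at -0.111 to 0.0359 over 9 pairs. Those of differently numbered libraries correlated at -0.104 to 0.162 over 18 pairs, and 0 of 9 libraries correlated best with their own number. A weak shared effect could be missed in this way. Low counts limit what could be detected for IL6, MMP2 and CCL2, which had at most 16, 21 and 27 counts in a library.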

Other observations

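The genes whose log2 CPM followed TIMP2 most closely over the 9 libraries, outside the members, were CMTM8, SLC35F6 and SMARCE1 (Pearson correlation 0.967, 0.955 and 0.925), and TIMP2 was chosen for this after its values were seen. SLC35F6, which encodes a transporter-like membrane protein, had 28.5, 30.7 and 121 CPM in oxaliplatin 1 to 3, 59.2, 134 and 35.9 CPM in sorafenib 1 to 3 and 100, 123 and 123 CPM in untreated 1 to 3. As for TIMP2, oxaliplatin 3 and sorafenib 2 stood at the untreated level and the other 4 drug libraries lower.

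HMGB2, a chromatin protein that falls in senescent cells and is known to keep secretory genes accessible, fell to 88.1 ± 13.6 CPM in oxaliplatin, against 200 ± 57.3 CPM in untreated libraries (mean ± SD, n = 3 each, log2 fold change -1.18 ± 0.21, adjusted p = 0.00417 by edgeR's quasi-likelihood test). HMGB1, its relative, which is itself released by senescent cells, fell by 0.91 ± 0.18 (adjusted p = 0.00559), and RB1 rose (0.90 ± 0.20, adjusted p = 0.0101). In sorafenib against untreated HMGB2 was at -0.19 ± 0.21 (adjusted p = 0.604).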
